A study of Mus musculus with 12 samples.

Results

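Hox genes encode homeodomain transcription factors that give cells along the head-to-tail axis their positional identity. In the mouse they lie in 4 clusters, Hoxa to Hoxd, on chromosomes 6, 11, 15 and 2. Within a cluster, genes of low paralogue number are switched on early and reach far forward in the embryo, while genes of high number are switched on late and are restricted to the tail end, where the bladder forms from the urogenital sinus. Hox proteins bind DNA with cofactors of the TALE homeodomain class, and polycomb and trithorax complexes hold their genes silent or active. Hoxa13 and Hoxd13 are known from mouse mutants for their part in forming the cloaca, urogenital sinus and genital tubercle.

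The genes described are the clustered Hox genes that had a probe set of their own on the array, that is, a probe set whose only gene symbol was that of a single clustered Hox gene. Of 39 clustered Hox genes in the RefSeq table, 33 had such a probe set, out of 18193 genes with a probe set of their own in the series. They comprised 9 Hoxa, 9 Hoxb, 7 Hoxc and 8 Hoxd genes. The 33 genes had 48 probe sets, and the probe set of highest mean over the arrays stood for each gene. The other 6 genes were not analysed here.

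RNA of whole bladders, taken from FVB/N pups on postnatal day 1 (Theiler stage 27) and all labelled male, was measured on 12 one-colour Affymetrix mouse arrays, 1 unpooled sample per array. Of these, 3 were from SMGA/EGFP pups, which carry a green reporter under the promoter of Actg2 (smooth muscle gamma actin). Another 3 were from SMAA/EYFP pups, with a yellow reporter under the promoter of Acta2 (smooth muscle alpha actin), and 6 were from wild-type pups. The transgenic pups came from FVB/N females mated to transgenic males, so genotype, sire and litter cannot be told apart. The question of the series was whether carrying the transgene changed the expression profile of the bladder. The labels do not say whether the samples of a group came from separate litters, so p-values measure only the spread between these samples.

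Features of the whole series bear on what follows. The database record numbers in the labels fall into 2 runs, the first with the SMGA/EGFP arrays and wild type 1 to 3, and the second with the SMAA/EYFP arrays and wild type 4 to 6. The labels do not say what the runs stand for. Wild type 4 went against its label of male: its intensity for Xist, the RNA of X inactivation, was 29604, against 80.1 to 250.4 on the other 11 arrays, and its intensity for the Y-linked Eif2s3y was 26.7, against 3284 to 5096. Each result was therefore recomputed without that array, and without every other array in turn. Median intensity per array lay between 229.4 and 306.0. The tissue checked against its label: all 8 smooth muscle and all 8 urothelium markers were above background, as defined below, on all 12 arrays, while 0 of 5 kidney tubule markers, 1 of 5 intestine markers (Lgals4) and 0 of 3 measured prostate and Wolffian duct markers were. Of 6 fibroblast, 6 mesothelium, 7 measured neuron and glia and 7 skeletal muscle markers, 6, 3, 3 and 4 were above background on all 12 arrays.

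Levels of different probe sets cannot be set against each other on such arrays, so the positional profile was read as detection. A probe set was called above background on an array where its intensity exceeded the 95th percentile of 81 probe sets for odorant, vomeronasal and trace amine receptors, which most tissues outside the nose do not express. This bound lay between 160.2 and 270.2 on the 12 arrays. A probe set that did not exceed it may still belong to an expressed gene, since probe sets differ in sensitivity.

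By this measure 13 of the 33 Hox genes (39.4%) were above background on all 12 arrays, 13 on some and 7 on none. The same measure over all 18193 genes, by their highest-mean probe set, gave 60.1%, against which the share of Hox genes was lower. Over all 45037 probe sets, a different unit, it was 44.6%. Of the 14 genes of paralogue groups 9 to 13, 8 were above background on all 12 arrays. The corresponding counts were 2 of 9 for groups 5 to 8 and 3 of 10 for groups 1 to 4. By cluster, 5 of 9 Hoxa genes, 3 of 9 Hoxb genes, 1 of 7 Hoxc genes and 4 of 8 Hoxd genes were above background on every array. These are counts over small numbers of genes, the difference between paralogue groups was not tested, and the count for groups 9 to 13 is near the share over all genes.

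**Figure D1:**
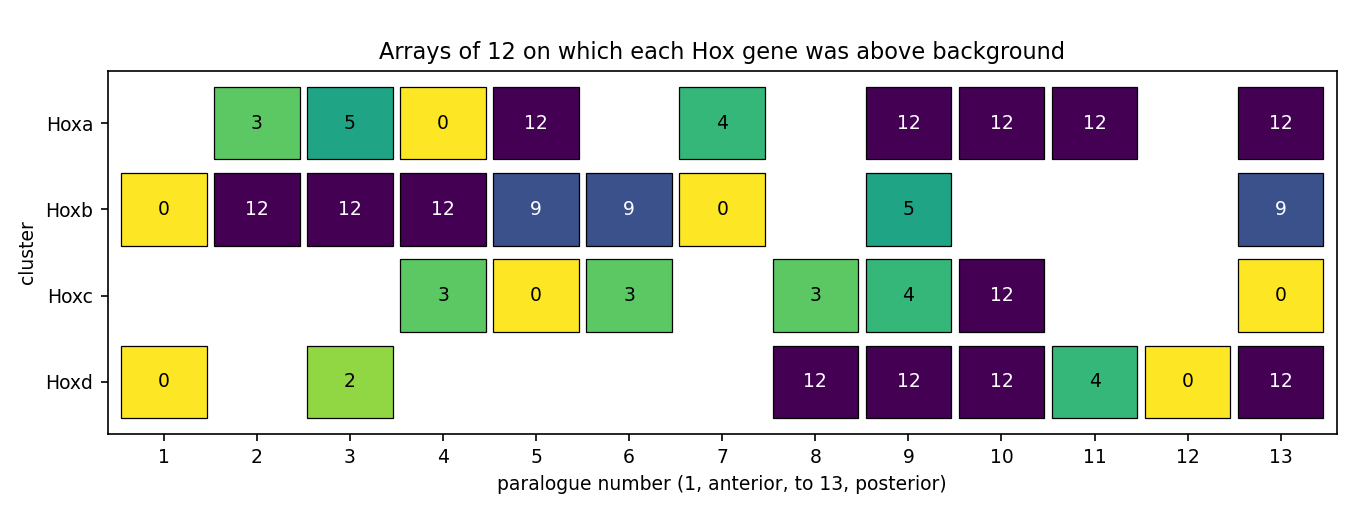
Number of arrays, of 12, on which each Hox gene exceeded the background bound, by cluster (rows) and paralogue number (columns). Darker cells mark more arrays, and an empty place has no gene or one not analysed here. The cells at 12 form an unbroken block from Hoxa9 to Hoxa11 and from Hoxd8 to Hoxd10, with Hoxa13 and Hoxd13 at the end of their clusters, and a separate block from Hoxb2 to Hoxb4. Hoxa5 and Hoxc10, apart from these blocks, are also at 12.

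In the Hoxa cluster, every measured gene of the posterior end, Hoxa9, Hoxa10, Hoxa11 and Hoxa13, was above background on all 12 arrays. Hoxa5, a gene of the middle of the cluster known for its role in the lung, was also above on all 12. The anterior genes were not: Hoxa2, which patterns the hindbrain and the second pharyngeal arch, exceeded the bound on 3 arrays, Hoxa3, needed for the thymus and parathyroid, on 5, and Hoxa4 on 0. Hoxa7 exceeded it on 4 arrays.

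The Hoxb cluster differed, in that the genes detected on every array lay near its front end. Hoxb2, Hoxb3 and Hoxb4, genes best known from the hindbrain, were above background on all 12 arrays, while Hoxb1 was above on none. Hoxb5 and Hoxb6 exceeded the bound on 9 arrays each, Hoxb9 on 5 and Hoxb7 on 0. Hoxb13, which stands alone at the far end of the cluster and is known as a prostate and hindgut gene, exceeded it on 9 arrays.

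In the Hoxc cluster Hoxc10, a gene of the lumbar and tail region, was above background on all 12 arrays and no other member was. Hoxc9 exceeded the bound on 4 arrays, and Hoxc4, Hoxc6 and Hoxc8 on 3 each. Hoxc5 and Hoxc13, the latter known from hair follicles, exceeded it on none. In the Hoxd cluster the run from Hoxd8 to Hoxd10 and the terminal gene Hoxd13 were above background on all 12 arrays. Between them lie Hoxd11, which exceeded the bound on 4 arrays, and Hoxd12, which exceeded it on none. At the front of the cluster, Hoxd3 exceeded the bound on 2 arrays and Hoxd1 on none.

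The counts around Hoxd12 come from the intensities that follow, which are therefore no separate support for a gap there. The Hoxd12 intensity ran from 6.85 to 72.6 over the 12 arrays, under the lowest bound throughout. Hoxd11 ran from 111.8 to 239.4, close to the bound on either side. Hoxd13 ran from 3343 to 6499. These ranges place each probe set against the background and not against one another.

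The sequence upstream of the start site is shown for 4 genes. Between the neighbours Hoxd13 and Hoxd12 the profile turns from detected to not detected. The other sequences are those of Hoxd10, which gave the lowest difference in both transgenic groups (below), and of Hoxa13, the paralogue of Hoxd13. Each is the run of 250 bases before the RefSeq start on assembly GRCm38.p6, written 5′ to 3′ on the gene's strand, with every CG dinucleotide in capitals. Hoxd13 lies at chr2:74667975-74668224 on the plus strand, Hoxd12 at chr2:74674763-74675012 on the plus strand, Hoxd10 at chr2:74691641-74691890 on the plus strand and Hoxa13 at chr6:52260881-52261130 on the minus strand.
Hoxd13: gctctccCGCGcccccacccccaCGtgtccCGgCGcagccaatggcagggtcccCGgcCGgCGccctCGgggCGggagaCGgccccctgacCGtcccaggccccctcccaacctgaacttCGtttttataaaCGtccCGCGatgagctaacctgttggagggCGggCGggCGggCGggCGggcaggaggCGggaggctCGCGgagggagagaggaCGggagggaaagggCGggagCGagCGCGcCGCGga
Hoxd12: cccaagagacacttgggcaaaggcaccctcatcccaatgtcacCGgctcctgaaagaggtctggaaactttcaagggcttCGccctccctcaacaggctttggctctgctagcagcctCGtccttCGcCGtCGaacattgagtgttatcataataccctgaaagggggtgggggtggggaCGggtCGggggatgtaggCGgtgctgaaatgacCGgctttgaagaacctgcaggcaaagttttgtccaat
Hoxd10: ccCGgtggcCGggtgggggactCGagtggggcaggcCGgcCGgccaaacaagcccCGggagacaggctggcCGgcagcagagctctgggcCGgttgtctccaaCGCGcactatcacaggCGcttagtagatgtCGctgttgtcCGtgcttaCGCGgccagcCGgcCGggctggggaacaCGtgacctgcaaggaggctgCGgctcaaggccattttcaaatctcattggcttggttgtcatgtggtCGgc
Hoxa13: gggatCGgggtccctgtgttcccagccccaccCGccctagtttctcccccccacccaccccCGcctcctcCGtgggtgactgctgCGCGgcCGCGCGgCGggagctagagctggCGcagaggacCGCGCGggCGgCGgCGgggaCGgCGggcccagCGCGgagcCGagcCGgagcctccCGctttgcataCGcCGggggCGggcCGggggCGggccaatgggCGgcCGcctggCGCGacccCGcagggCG

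CG dinucleotides, the sites at which mouse DNA is methylated, numbered 31 in the Hoxd13 window, 10 in that of Hoxd12, 20 in that of Hoxd10 and 35 in that of Hoxa13. The ratio of observed to expected CG (their number times the length, over the product of the C and G counts) was 0.901 for Hoxd13, 0.520 for Hoxd12, 0.755 for Hoxd10 and 0.875 for Hoxa13. The RefSeq promoter table held 21 windows of 19 of the 33 genes. Their median ratio was 0.687, against 0.374 over 32851 windows of 27025 genes. The median was 0.760 over the 11 windows of the 10 genes above background on all 12 arrays (range 0.266 to 1.11) and 0.493 over the 10 windows of the other 9 genes (range 0.16 to 0.88). The ranges overlap. Hoxa9, with a ratio of 0.266, was above background on all 12 arrays, and Hoxd1, with 0.759, on none. The motif TTTAT, an AT-rich core of the kind posterior Hox proteins bind, or its reverse complement ATAAA, was found in 7 of the 21 windows (33.3%) and in 37.3% of all windows. The Hoxd13 window was the only one of the 21 with TATAAA on the given strand, which overlaps ATAAA and which 7.59% of all windows hold. These are matches of letters in one stretch of sequence and say nothing of binding.

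The posterior genes that were above background on every array are given array by array. Intensities are linear and as deposited, and in each sentence the wild-type values are the lowest, median and highest of 6. Hoxa9, which with its paralogues shapes the reproductive tract, had intensities of 6590, 8332 and 8086 in SMGA/EGFP, 6551, 8861 and 8061 in SMAA/EYFP, and 6084, 7150 and 8335 in wild type. Hoxa10, needed for the uterus and the descent of the testis, had 4230, 6097 and 4933 in SMGA/EGFP, 6226, 5410 and 6148 in SMAA/EYFP, and 4536, 5789 and 7345 in wild type. For both genes each transgenic group overlapped wild type.

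Hoxa11, a gene of the ureteric bud region, forelimb and uterus, had intensities of 883.5, 1108 and 997.1 in SMGA/EGFP, 1055, 1090 and 957.0 in SMAA/EYFP, and 835.5, 1065 and 1201 in wild type. Hoxa13 had 729.3, 678.1 and 807.4 in SMGA/EGFP, 679.1, 583.3 and 581.7 in SMAA/EYFP, and 584.5, 700.9 and 805.3 in wild type. The Hoxa11 values of both transgenic groups lay inside the wild-type range, while 1 SMGA/EGFP array lay just above and 2 SMAA/EYFP arrays just below that range for Hoxa13.

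Hoxd9 had intensities of 886.2, 749.6 and 716.0 in SMGA/EGFP, 670.9, 554.0 and 580.9 in SMAA/EYFP, and 598.9, 667.9 and 817.9 in wild type. Every SMGA/EGFP value of Hoxd9 was above every SMAA/EYFP value on this scale, and wild type spanned the gap between them. After normalization the transgenic groups overlapped for Hoxd9. Hoxd10, a gene of the lumbar spinal cord and hindlimb, had 1036, 815.8 and 1040 in SMGA/EGFP, 980.4, 891.3 and 870.4 in SMAA/EYFP, and 1022, 1148 and 1423 in wild type. Both transgenic groups sat at or below the low end of the wild-type range for Hoxd10.

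Hoxd13 had intensities of 4531, 4819 and 6499 in SMGA/EGFP, 4484, 3343 and 4632 in SMAA/EYFP, and 3707, 4202 and 6486 in wild type. Hoxc10 had 716.6, 694.8 and 664.1 in SMGA/EGFP, 268.1, 358.9 and 551.7 in SMAA/EYFP, and 284.2, 409.7 and 992.7 in wild type. Wild type 1 and wild type 2 carried the highest wild-type values of both genes. Hoxb3, which is added here because later comparisons turn on it, had 1229, 1194 and 1308 in SMGA/EGFP, 577.0, 954.7 and 801.1 in SMAA/EYFP, and 600.5, 752.0 and 1921 in wild type. All 3 SMGA/EGFP arrays lay above all 3 SMAA/EYFP arrays for Hoxc10 and Hoxb3. After normalization, 14.5% of all probe sets tested also had no overlap between these groups, and each group lies in a run of its own.

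**Figure D2:**
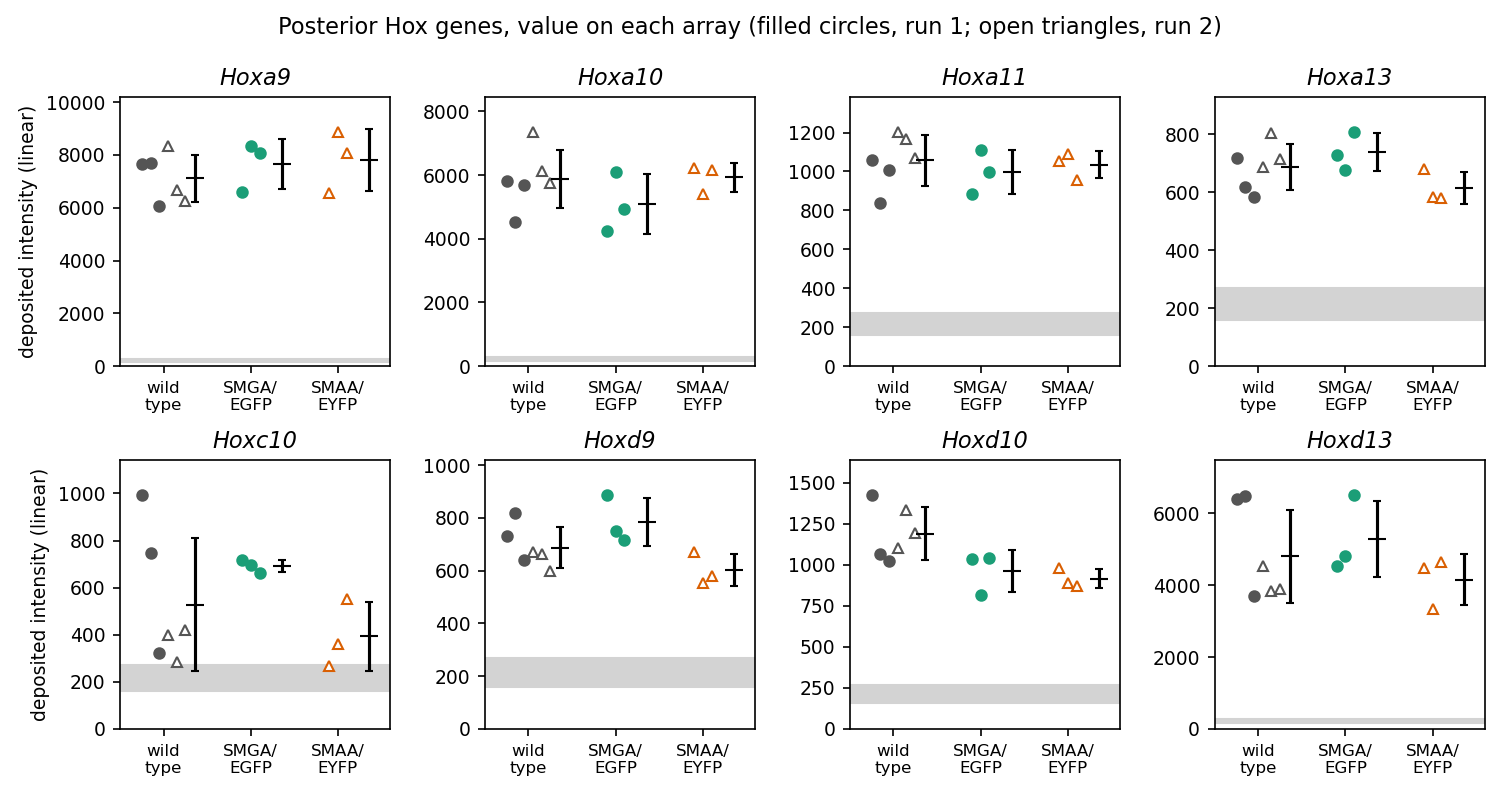
Deposited linear intensity of 8 posterior Hox genes on each array, by group, with each group's mean ± SD in black (n = 6, 3 and 3 arrays). Filled circles are arrays of the first run of record numbers and open triangles those of the second, and the grey band spans the background bounds of 160.2 to 270.2. Hoxc10 is the one gene of the 8 that reaches into the band, with a lowest value of 268.1 on an array whose own bound was 219.6, and its 2 highest wild-type arrays both belong to the first run.

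Of the other detected genes, Hoxd8 ran from 4490 to 6607 over the 12 arrays, Hoxa5 from 453.1 to 733.6, Hoxb2 from 911.8 to 1523 and Hoxb4 from 276.1 to 512.3. Hoxb13 ran from 101.9 to 365.1 and crossed the bound. On the log2 scale after quantile normalization, the within-group SD of the 14 Hox genes that could be tested had a median of 0.20, against 0.23 for all 22518 probe sets tested, and 6 of the 14 were above that median. Hoxd9 (SD 0.13) and Hoxd8 (0.13) were the steadiest of the 14. Hoxc10 (0.51), Hoxb3 (0.48) and Hoxb13 (0.48) varied most, with 94.0%, 92.3% and 92.2% of all tested probe sets less variable.

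Where a gene had more than 1 probe set, these did not always give the same detection. The second probe sets of Hoxa5, Hoxa9 and Hoxd8 were above background on all 12 arrays, as the main ones were. Those of Hoxa10, Hoxb3, Hoxb4 and Hoxd13 exceeded it on 3, 3, 1 and 4 arrays. Hoxa3 had a further probe set above background on 7 arrays. No gene reached all 12 arrays through a secondary probe set alone.

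Differences between the groups were tested with limma on log2(intensity + 16) after quantile normalization, across the 22518 probe sets in the upper part of the table by mean level (above the median), with Benjamini-Hochberg adjustment over all of them and a threshold of 0.05. The 13 genes detected on every array and Hoxb13 were in the test, and the other 19 Hox genes lay under the filter. A log2 difference is the first group minus the second, with its SE, and folds of low genes are understated by the added 16. The 2 comparisons with wild type share the 6 wild-type arrays.

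Against wild type, no Hox gene passed the test in SMGA/EGFP bladders (0 of 14, adjusted p from 0.712 to 0.992 in limma), where 0.0622% of all probe sets passed (14 of 22518). At an unadjusted p under 0.05 there were 1 Hox gene and 6.92% of all probe sets. Of the 14 genes 10 had a higher mean in SMGA/EGFP and 4 a lower, with a median log2 difference of 0.13 against -0.012 over all probe sets. The 3 highest differences were those of Hoxc10 (0.45 ± 0.32), Hoxb13 (0.42 ± 0.31) and Hoxb3 (0.42 ± 0.29). The lowest were those of Hoxd10 (-0.34 ± 0.14), Hoxa10 (-0.21 ± 0.14) and Hoxa11 (-0.13 ± 0.15). None of these 6 passed. With run as a blocking term, Hoxc10 came to 0.10 ± 0.32 and Hoxb3 to 0.080 ± 0.29, and the 3 highest were Hoxb13 (0.41 ± 0.37), Hoxd8 (0.21 ± 0.12) and Hoxa13 (0.19 ± 0.16). Hoxd10 alone had groups that did not overlap after normalization, which 2.72% of all probe sets also had. The margin was narrow: the highest SMGA/EGFP log2 level was 10.021 and the lowest wild-type level 10.035. The deposited intensities of these groups overlapped.

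SMAA/EYFP bladders likewise had no Hox gene past the test against wild type (0 of 14, adjusted p from 0.991 to 1.00 in limma). No other probe set passed either, so the share over all probe sets was 0%. At an unadjusted p under 0.05 there were 2 Hox genes, Hoxd10 and Hoxd8, and 4.81% of all probe sets. There were 7 genes with a higher and 7 with a lower mean, and the median log2 difference was -0.0015 against 0.0028 over all probe sets. Hoxd8 (0.23 ± 0.10), Hoxa9 (0.13 ± 0.13) and Hoxb13 (0.11 ± 0.31) had the highest differences, and Hoxd10 (-0.36 ± 0.14), Hoxc10 (-0.30 ± 0.32) and Hoxb3 (-0.21 ± 0.29) the lowest. The second probe set of Hoxd8, also above background on all 12 arrays, had the opposite sign. It gave -0.14 here and -0.12 in SMGA/EGFP against wild type. The second probe set of Hoxa9 gave 0.20 here. As arrays were left out in turn, Hoxb3 ranged from -0.34 (without SMAA/EYFP 2) to -0.0017 (without wild type 1), Hoxc10 from -0.55 (without SMAA/EYFP 3) to -0.10 (without SMAA/EYFP 1) and Hoxa9 from 0.029 (without SMAA/EYFP 2) to 0.25 (without SMAA/EYFP 1). Groups did not overlap for Hoxd10, as for 2.99% of all probe sets. Here too the margin was narrow, from 10.026 (highest SMAA/EYFP) to 10.035 (lowest wild type) in log2 level.

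Hoxd10 was thus the gene with the lowest log2 difference in both transgenic groups, measured against the same 6 wild-type arrays. Its mean log2 level was 9.89 ± 0.17 (SD, n = 3) in SMGA/EGFP, 9.88 ± 0.13 (SD, n = 3) in SMAA/EYFP and 10.24 ± 0.18 (SD, n = 6) in wild type. Against the 3 wild-type arrays of its own run, SMGA/EGFP differed by -0.30 ± 0.19 and SMAA/EYFP by -0.40 ± 0.14. It ranged from -0.41 to -0.24 and from -0.43 to -0.31 when arrays were left out in turn. Neither comparison passed adjustment in any of these fits. Urothelium markers moved the other way in the same comparisons: all 8 had a higher mean in SMGA/EGFP (median log2 difference 0.18) and in SMAA/EYFP (0.31) than in wild type, and 0 of the 8 passed in either. Their summed level, as a mean log2 deviation from the mean of the 12 arrays, ran from -0.14 to 0.21 in SMGA/EGFP, from 0.024 to 0.27 in SMAA/EYFP and from -0.46 to 0.12 in wild type. Fibroblast markers lay on the same side as Hoxd10, with 4 of 6 lower in SMGA/EGFP (median -0.059) and 6 of 6 lower in SMAA/EYFP (-0.13), and 0 of 6 passed in either. Other lists lay on that side too. Of 8 smooth muscle markers, 6 were lower in SMGA/EGFP and 5 in SMAA/EYFP, and 4 of 5 skeletal muscle markers were lower in each. Of 13 tested transcription factors of bladder and pelvic mesenchyme, 8 and 12 were lower. Neuron and glia markers went the other way, with 6 of 7 and 5 of 7 higher. The part of any of these lists in the Hoxd10 difference was not tested. In whole bladders, fewer cells of a type and less RNA per cell cannot be told apart.

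**Figure D3:**
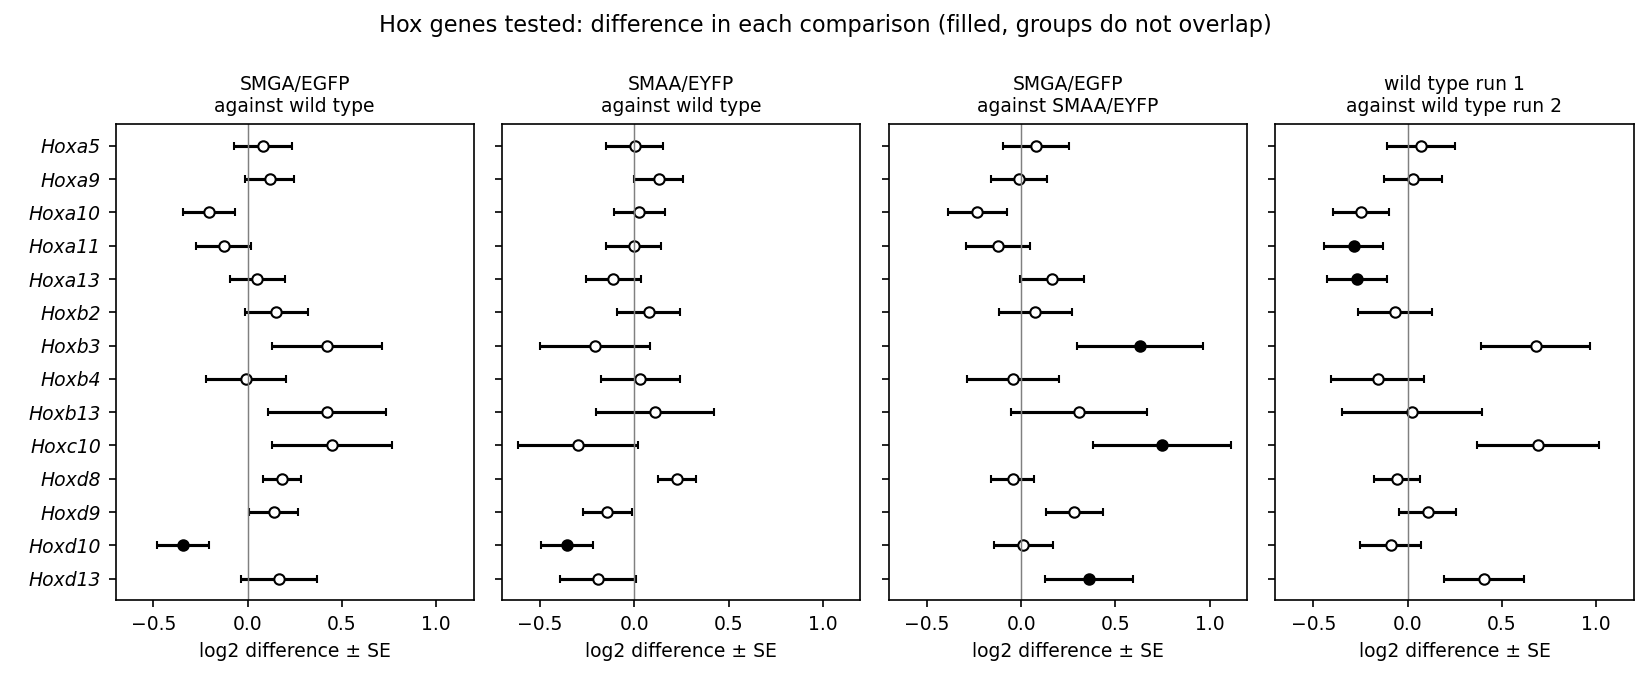
Log2 difference ± SE (limma) of the 14 Hox genes tested in 4 comparisons, after quantile normalization, with filled points where the arrays of the groups do not overlap. Hoxd10 lies at -0.34 and -0.36 against wild type, and Hoxc10 and Hoxb3 lie highest both in SMGA/EGFP against SMAA/EYFP and between the wild-type arrays of the runs.

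Between the transgenic groups, the highest log2 differences of SMGA/EGFP over SMAA/EYFP were 0.75 ± 0.37 for Hoxc10, 0.63 ± 0.34 for Hoxb3 and 0.36 ± 0.23 for Hoxd13. After normalization the groups did not overlap for these 3 of 14 genes, nor for 14.5% of all probe sets. None passed (0 of 14, adjusted p from 0.556 to 0.986 in limma), against 0.0799% of all probe sets (18 of 22518), and 0 had an unadjusted p under 0.05, against 9.31% of all probe sets. The lowest differences were those of Hoxa10 (-0.23 ± 0.16), Hoxa11 (-0.12 ± 0.17) and Hoxd8 (-0.045 ± 0.12). The median over the 14 genes was 0.077, against -0.021 over all probe sets. Each transgenic group lies in a run of its own, and with the run as a term in the fit, which rests on the wild-type arrays, the differences were 0.053 ± 0.46 for Hoxc10, -0.049 ± 0.41 for Hoxb3 and -0.046 ± 0.30 for Hoxd13.

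These 3 genes also had the highest differences between wild-type arrays. Wild type 1 to 3, of the first run, minus wild type 4 to 6, of the second, gave 0.69 ± 0.32 for Hoxc10, 0.68 ± 0.29 for Hoxb3 and 0.41 ± 0.21 for Hoxd13. The 3 lowest differences were those of Hoxa11 (-0.29 ± 0.16), Hoxa13 (-0.27 ± 0.16) and Hoxa10 (-0.25 ± 0.15). None passed (0 of 14, adjusted p from 0.592 to 0.993 in limma), and neither did any other probe set (0%), while 1 Hox gene and 8.15% of all probe sets had an unadjusted p under 0.05. The runs did not overlap for Hoxa11 and Hoxa13, as for 13.5% of all probe sets. Over the 14 genes 7 were higher and 7 lower, with a median of -0.017, against -0.020 over all probe sets.

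Wild type 3 had the lowest Hoxb3 and Hoxc10 levels of the first run. Its log2 levels were 9.40 for Hoxb3 and 8.52 for Hoxc10, against 10.90 and 9.92 in wild type 1 and 10.29 and 9.51 in wild type 2. Without it, Hoxb3 differed by 1.08 between the runs and passed (adjusted p = 0.0272 in limma), and Hoxc10 differed by 1.09 (adjusted p = 0.0659). In that fit 430 probe sets passed in all, against 0 of 22518 with every array kept. Leaving out the lowest array of the first run, the higher one, raises both differences by construction. The pass of Hoxb3 is therefore no separate support for a difference between the runs. The adjusted p of Hoxb3 ranged from 0.0272 to 1.00 over the arrays left out. Without wild type 4, which went against its label, Hoxb3 differed by 0.75 and Hoxc10 by 0.73, and neither passed.

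Markers of pelvic ganglion neurons and glia moved with Hoxc10 and Hoxb3 in 3 of the 4 comparisons. These 3 are not separate, since each sets arrays of the first run against arrays of the second, in whole or in part. With the run in the fit, SMGA/EGFP against wild type gave 0.10 for Hoxc10 and 0.080 for Hoxb3. Against SMAA/EYFP it gave 0.053 and -0.049. The 7 tested markers were the neuronal Stmn2, Prph, Chrna3, Th and Dbh, with Sox10 and Erbb3 taken as glial. Whether the Erbb3 signal of whole bladder came from glia was not tested. All 7 were higher in the first wild-type run than in the second (median log2 difference 1.25). In SMGA/EGFP, 6 of 7 had a higher mean than in the wild-type arrays (0.70) and than in SMAA/EYFP (0.66). In SMAA/EYFP against wild type the markers did not move with Hoxc10 and Hoxb3. There 5 of 7 were higher (median 0.035) while Hoxc10 and Hoxb3 were at -0.30 and -0.21. None of the 7 passed in any of the 4 comparisons. Their summed level, as a mean log2 deviation, ran from 0.32 to 0.89 in SMGA/EGFP, from -0.81 to 0.69 in SMAA/EYFP, from -0.36 to 1.28 in the first wild-type run and from -1.10 to -0.82 in the second. Their mean deviation was 0.57 in SMGA/EGFP and 0.52 in wild type 1 to 3, which share its run. In the second run it was -0.16 in SMAA/EYFP and -0.93 in wild type 4 to 6. Within that run, SMAA/EYFP minus wild type was 0.048 ± 0.27 for Hoxc10 and 0.13 ± 0.18 for Hoxb3. None of the markers was at 0: Stmn2 ran from 618.2 to 12739 in intensity, and Th, the lowest of the list by detection, exceeded the bound on 6 arrays.

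Over the 12 arrays the log2 level of Hoxc10 followed the mean log2 level of these 7 markers with Pearson's r = 0.91 (permutation p = 0.00013, adjusted p = 0.0091) and Spearman's rho = 0.80 (permutation p = 0.0029, adjusted p = 0.098). Without the 2 arrays farthest from the median marker level, r was 0.86. It was 0.95 within the first run, 0.74 within the second, and 0.93 for deviations from the group means. The marker levels leave a gap of 0.68 between the lower 6 and the upper 6 arrays, and r was 0.15 within the lower 6 and 0.74 within the upper 6. An r at least as high was found for 0.671% of all 22518 probe sets. For Hoxb3, r was 0.84 (permutation p = 0.00099, adjusted p = 0.035) and rho was 0.75 (permutation p = 0.0070, adjusted p = 0.098). Its r was 0.78 without the 2 farthest arrays, 0.92 and 0.48 within the runs, and 0.37 and 0.53 below and above the gap. For Hoxb3 an r at least as high was found for 1.27% of all probe sets.

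The mean level of the 5 tested skeletal muscle markers followed the same genes less closely. Its r was 0.70 for Hoxb3 (permutation p = 0.013, adjusted p = 0.13) and 0.66 for Hoxc10 (permutation p = 0.022, adjusted p = 0.15). The mean deviation of these markers was 0.30 in SMGA/EGFP, 0.25 in the first wild-type run, -0.13 in SMAA/EYFP and -0.43 in the second wild-type run. They did not move as a set. In SMGA/EGFP against wild type, Myl1 differed by 2.74 ± 1.40, while the other 4 of 5 were lower (median of the 5 -0.15). Between the wild-type runs 2 were higher and 3 lower (median -0.029).

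These belong to a family of 70 relations, the 14 tested Hox genes against 5 marker lists, computed after the values were seen, with 100000 resamples each and two-sided p. By r, 3 had an adjusted p under 0.05, and by rho 0 had. The third was that of Hoxa9 with the smooth muscle markers (r = -0.84, permutation p = 0.0015, adjusted p = 0.036; rho = -0.69, permutation p = 0.017, adjusted p = 0.11). Its r was -0.79 without the 2 farthest arrays and -0.82 and -0.92 within the runs, but -0.39 (adjusted p = 0.34, permutation) when arrays were centred on their median in place of quantile normalization. After quantile normalization an r at least as low was found for 0.320% of all probe sets. With the urothelium markers, Hoxa9 had an r above 0 (r = 0.78, permutation p = 0.0030, adjusted p = 0.052), with 0.84 and 0.76 within the runs. Hoxd10 had an r below 0 with them (r = -0.75, permutation p = 0.0049, adjusted p = 0.057), with -0.47 and -0.96 within the runs, and an r of 0.61 with the fibroblast markers (permutation p = 0.036, adjusted p = 0.17). With the urothelium markers, 1.41% of all probe sets had an r at least as high as that of Hoxa9. For 0.924% r was at least as low as that of Hoxd10. Hoxd13 had an r of 0.69 with the neuron and glia markers (permutation p = 0.015, adjusted p = 0.13), and 0.56 without the 2 farthest arrays. Its r was 0.64 and 0.26 within the runs, and -0.52 and 0.11 below and above the gap in the marker levels. Hoxa11 had an r of -0.77 with the skeletal muscle markers (permutation p = 0.0047, adjusted p = 0.057) and a rho of -0.75. Its r was -0.29 without the 2 farthest arrays, -0.67 and -0.50 within the runs and -0.86 within the 7 arrays below the widest gap. The arrays share their RNA between the Hox gene and the markers, and the part of cell makeup in any Hox difference was not tested.

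**Figure D4:**
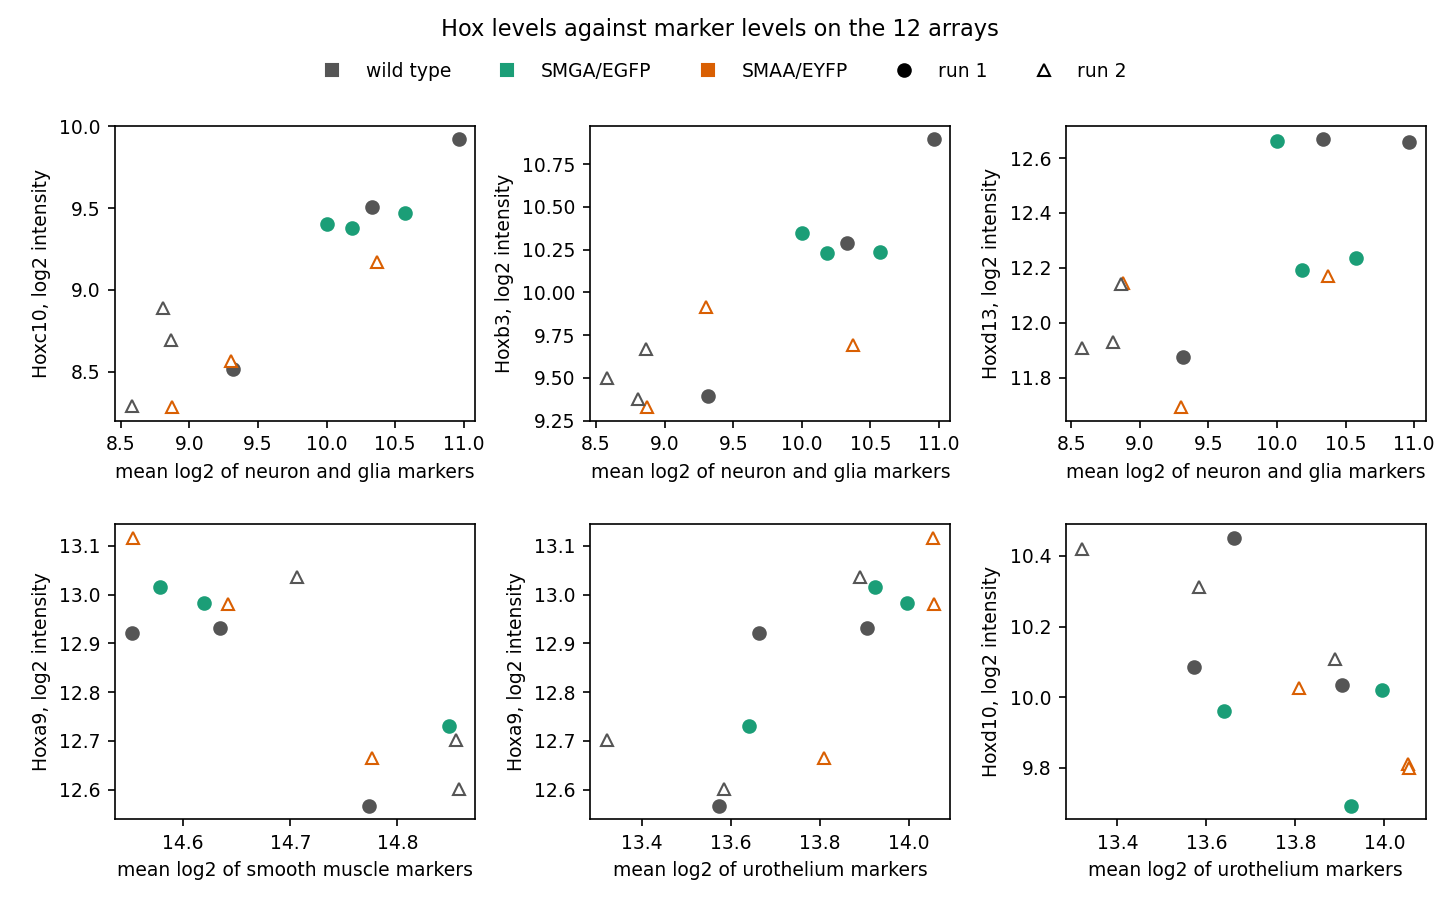
Log2 level of 5 Hox genes against the mean log2 level of cell type markers on the 12 arrays, after quantile normalization, coloured by group, with filled circles for the first run of record numbers and open triangles for the second. Hoxc10 and Hoxb3 rise with the neuron and glia markers (r = 0.91 and 0.84). For Hoxd13 r is 0.69 over the 12 arrays, but -0.52 and 0.11 below and above the gap in the marker levels. Hoxa9 and Hoxd10 run in opposite directions along the urothelium markers (0.78 and -0.75).

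Mesothelium markers separated the transgenic groups, with 3 of 6 lower in SMGA/EGFP than in the wild-type arrays past the test (Gpm6a, Lrrn4 and Muc16) and 4 of 6 lower than in SMAA/EYFP (the same 3 and Msln). Their summed level ran from -1.45 to -1.15 in SMGA/EGFP and from -0.14 to 0.75 in wild type, leaving a gap of 1.01, so no correlation with Hox genes was computed for them.

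The cofactors with which Hox proteins bind DNA were nearly all detected: 7 of 8 measured TALE genes, Pbx2, Pbx3, Meis1, Meis2, Meis3, Pknox1 and Pknox2, were above background on all 12 arrays, and Pbx4 on none. Over all genes this share was 60.1%, to be set beside this count and those of the lists that follow. None of the 7 tested passed in any of the 4 comparisons, and their median log2 difference lay between -0.20 and 0.15. In SMAA/EYFP against wild type, Pknox2 differed by -0.59 ± 0.16 and Meis2 by -0.39 ± 0.16 (adjusted p = 0.991 in limma for each). In SMGA/EGFP against SMAA/EYFP, Pknox2 differed by 0.71 ± 0.19 (adjusted p = 0.329 in limma). Pbx3 gave -0.61 ± 0.22 between the wild-type runs (adjusted p = 0.519 in limma).

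Of 19 measured regulators of Hox chromatin, 17 were above background on all 12 arrays, among them the polycomb genes Ezh2, Suz12, Eed, Rnf2 and Bmi1 and the trithorax gene Kmt2a. Of 18 tested, 0 passed in any comparison, with medians between -0.051 and 0.022. The smallest p was that of Phc1, a polycomb gene, between the wild-type runs (0.40 ± 0.13, adjusted p = 0.468 in limma). The signals that set Hox expression in the embryo were detected in part. The retinoic acid genes Aldh1a2, Rarb, Rarg and Rxra and the receptors Acvr2a, Acvr2b and Tgfbr1 were above background on all 12 arrays (7 of 15 measured), while Cdx1, Cdx2 and Cdx4, which drive posterior Hox genes in the early embryo, and Rara were above on none. All 8 tested had a higher mean in SMGA/EGFP than in the wild-type arrays (median 0.12), as had 47.1% of all probe sets, and 0 passed here or in the other comparisons. Rarb, a retinoic acid receptor, differed by 0.61 ± 0.23 there and by 0.82 ± 0.27 in SMGA/EGFP against SMAA/EYFP (adjusted p = 0.709 and 0.419 in limma). It also differed by 0.52 ± 0.24 between the wild-type runs, the first of which holds the SMGA/EGFP arrays.

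Transcription factors other than Hox were read in the same way, beside the 60.1% of all genes above background on all 12 arrays. Of 18 measured factors of bladder and pelvic mesenchyme, 13 were above background on all 12 arrays, among them Foxf1, Tcf21, Osr1, Tbx18, Pitx1 and Hand2. Of 18 measured factors of anterior or other organs, 2 were above on all 12, Hhex and the hindlimb factor Tbx4, the forelimb and heart factor Tbx5 was above on 11, and 10 were on none, among them Otx2, Pax6 and Nkx2-1 of the brain and thyroid and Pdx1 of the pancreas. Of the 13 and 3 tested, 0 passed in any comparison. Medians lay between -0.14 and -0.0092 for the first list and between -0.32 and 0.13 for the second. In SMGA/EGFP against SMAA/EYFP, Osr1, a factor of intermediate and lateral mesoderm, differed by 0.42 ± 0.11 (adjusted p = 0.329 in limma). Isl1, a factor of the genital tubercle, bladder mesenchyme and neurons, differed by 2.26 ± 0.69 between the wild-type runs and Pitx1, a hindlimb factor, by -1.04 ± 0.29 (adjusted p = 0.441 in limma for each).

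Genes at the borders of the clusters were read as neighbours that are not Hox genes. Of 12 measured, 8 were above background on all 12 arrays, which is near the 60.1% of all genes. Of 8 tested, 0 passed in any comparison (medians between -0.011 and 0.043). Cbx5 had the smallest p, between the wild-type runs (0.33 ± 0.14, adjusted p = 0.589 in limma). Evx1, the homeobox gene beside Hoxa13, was above background on all 12 arrays, and Evx2, beside Hoxd13, on 1. Of the non-coding RNAs of the clusters 2 were measured: Hoxa11os, transcribed opposite Hoxa11, was above background on all 12 arrays with intensities of 883.3 to 2018, and Hoxb5os on 7. Neither passed in any comparison, with medians of the 2 between -0.085 and 0.34. All 6 genes reported as targets of Hoxa13 in the limb, Aldh1a2, Bmp2, Bmp7, Epha7, Hand2 and Sostdc1, were above background on all 12 arrays, and 0 of 6 passed in any comparison (medians between -0.10 and 0.032). In SMGA/EGFP against wild type, Bmp2 differed by 0.42 ± 0.18 (adjusted p = 0.718 in limma), and in SMGA/EGFP against SMAA/EYFP by 0.49 ± 0.21 (adjusted p = 0.514 in limma).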

How the data were processed

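Each array was deposited as 1 linear intensity per probe set, computed by the authors in GCOS according to the submitters' processing notes. The version and the algorithm are not given in the sources used here. Per the labels, RNeasy-purified RNA went through 1 round of amplification and was labelled with biotin. The number of arrays limits the precision. The 64 control probe sets were left out of the tests. Gene symbols were those of GEO's annotation of the platform, brought up to date through a RefSeq table of GRCm38.p6 (0 changed), which also gave the promoter windows. Values were taken as log2(intensity + 16), quantile-normalized and tested with limma 3.58.1 in R 4.3.3 (eBayes with an intensity trend, all 12 arrays in the fit, two-sided), a step tested on simulated data. Permutation tests ran in Python 3.11.15 with numpy 2.4.6. A marker level is the mean log2 value of the tested genes of a list.

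In each comparison the genes named were those past the threshold and, with under 6, the 3 highest and 3 lowest differences. Genes of paralogue groups 9 to 13 above background on all 12 arrays were given on every transgenic array, with the lowest, median and highest wild-type value. For lists of Hox-related genes, genes of small p were named with their differences. Hoxb3's values by array, further genes named for their detection and the relations to marker levels were chosen after the values were seen. The Hox genes and lists were chosen with earlier results of these data known.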

Additional observations from a re-analysis of the deposited data

Results flagged for a closer look

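Among the 6 wild-type arrays, wild type 2 stood apart from the rest for Hoxd9. Its log2 level was 9.64 (intensity 817.9), against 9.37 to 9.46 on the other 5. The gap made up 0.672 of the group's range, above Dixon's 95% critical value for 6 samples. It was the 1 case among 20 sets of 6 values examined, the 14 tested Hox genes and 6 marker levels, and chance flags about 1 in 20. The SMGA/EGFP arrays had a mean of 9.59 ± 0.11 (SD, n = 3) for the same gene.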

How the results depend on the processing

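No paired analysis was possible because the labels carry no replicate numbers that the groups share. The count of Hox genes above background on all 12 arrays stayed at 13 with the 90th percentile of the receptor probe sets, with the array median as the bound, with normalized values, with any probe set of a gene, without the probe sets of Olfr78 (an alternative added after its level was seen) and without each array in turn. With the 99th percentile, which lay between 252.5 and 2968, it was 4 (Hoxa9, Hoxa10, Hoxd8 and Hoxd13). The number of Hox genes past the test was 0 in all 4 comparisons under every alternative, except that between the wild-type runs it ranged from 0 to 1 as arrays were left out. Some differences of genes that did not pass changed sign, with causes not tested. With the run as a block, and within the run, Hoxa11 in SMGA/EGFP against wild type came to 0.016, and in SMAA/EYFP against wild type Hoxc10 came to 0.048 and Hoxb3 to 0.13. With the block, SMGA/EGFP against SMAA/EYFP gave 0.018 for Hoxa10, 0.16 for Hoxa11, 0.012 for Hoxd8, -0.046 for Hoxd13 and -0.049 for Hoxb3. With the mean of all probe sets of a gene, Hoxa10 came to 0.060 in SMGA/EGFP against wild type and, in SMGA/EGFP against SMAA/EYFP, Hoxa10 to 0.37 and Hoxd13 to -0.032. As arrays were left out, Hoxb13 in SMAA/EYFP against wild type ranged from -0.073 to 0.31 and Hoxd8 in SMGA/EGFP against SMAA/EYFP from -0.12 to 0.00088. Leaving out arrays moved r between 0.88 and 0.95 for Hoxc10, between 0.79 and 0.92 for Hoxb3 and between -0.89 and -0.81 for Hoxa9 with the smooth muscle markers. The adjusted permutation p rose above 0.05 without wild type 1 for all 3, without wild type 6 or SMAA/EYFP 2 for Hoxb3 and Hoxa9, and without any of wild type 2, SMGA/EGFP 2 and 3 or SMAA/EYFP 3 for Hoxa9.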
